A study of Homo sapiens with 4 samples.

Results

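Genes of the IL-1 and IL-6 cytokine families were followed in MDA-MB231 cells on 4 Affymetrix U133A 2.0 arrays: the IL-1 ligands IL1A and IL1B, the IL-1 receptor chains IL1R1 and IL1RAP, the IL-6 family ligands IL6, IL11 and LIF, and the receptor chains IL6ST and OSMR. All probe sets listed for exactly 1 of these genes were taken, which gave 18 probe sets of 9 genes among 22277 probe sets and 11963 genes in all. CSF2, also named among the 10 genes of the set, is not analysed here, since the gene table used names no probe set for it. The genes were selected on the differences that these same 4 arrays show between media and between shRNAs, so their signals and ratios are a description and carry no test. That rule has no threshold.

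MDA-MB231 is a line of human breast carcinoma cells known to be estrogen receptor negative. The cells carried either PIAS1 shRNA2, a hairpin against the SUMO ligase and transcriptional repressor PIAS1, or a control shRNA with a scrambled sequence, each under the U6 promoter of a lentiviral vector and kept by drug selection. Both lines were cultured for 30 h in SCM, a serum-free stem cell medium with EGF, basic FGF and insulin, or in DMEM containing 10% FBS. Each of the 4 conditions (PIAS1 shRNA2 in SCM, control shRNA in SCM, PIAS1 shRNA2 in DMEM, control shRNA in DMEM) was measured on 1 array, so the spread between cultures is unknown, no difference has a p-value, and loss of PIAS1 cannot be told apart from another difference between the lines. A higher signal in a culture can come from more RNA per cell or from more cells that make it, and these cannot be told apart here either.

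IL-1 alpha and IL-1 beta bind the receptor chain IL1R1, which then pairs with the accessory chain IL1RAP and signals through MYD88 and IRAK kinases to NF-kappaB and AP-1. The IL-6 family cytokines share the receptor chain gp130, encoded by IL6ST, and signal through JAK kinases to STAT3, with the second chain setting which ligand is read (IL6R for IL-6, IL11RA for IL-11, LIFR for LIF, OSMR for oncostatin M). In breast cancer cells both families are known as autocrine and paracrine signals, and IL6 is a well known target of NF-kappaB and C/EBP factors.

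Signals are array intensities on a linear scale, and a background floor of 182 was set from genes of other tissues. PIAS1 was lower in the PIAS1 shRNA2 cells on each of its 3 probe sets. On the brightest its signal was 671 in PIAS1 shRNA2 cells and 1814 in control shRNA cells in SCM, and 512 and 1383 in DMEM, 37.0% of control in both media, and on 217864_s_at it was at 31.5% in SCM and 23.8% in DMEM. On 217863_at it was at 77.9% in SCM, and in DMEM its signal in PIAS1 shRNA2 cells (158) was under the floor, which bounds it at 26.6% of control or less. The mean signal without the lowest and highest 2% of probe sets was 2501 on every array, and 64.6% to 68.3% of the probe sets exceeded the floor. The 3' to 5' signal ratio of ACTB, a measure of RNA integrity, was 1.11 and 1.07 in SCM (PIAS1 shRNA2, control shRNA) and 0.946 and 0.982 in DMEM (same order), while that of GAPDH was 0.879 and 0.834 in SCM and 0.858 and 0.860 in DMEM. The part of the ACTB difference in the differences between media was not tested. All 6 markers taken as expressed by MDA-MB231, VIM and CD44 among them, were above the floor on all arrays. Of the 7 taken as absent, PGR, CDH1 and KRT5 were under it on all arrays, and ESR1, ERBB2, EPCAM and GATA3 were above it. ESR1 read 357 in PIAS1 shRNA2 cells and 706 in control shRNA cells in SCM. In DMEM it read 206 and 216, little above the floor.

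Most genes of the family were higher in SCM than in DMEM, and few differed between the shRNAs. In SCM, 7 of the 9 genes were at least 2-fold higher than in DMEM in PIAS1 shRNA2 cells and 8 of the 9 in control shRNA cells, where 10.9% and 10.7% of all genes above the floor were. None of the 9 was at least 2-fold lower in either line, as 10.4% and 10.7% of all genes were. The median gene of the 9 was 4.01-fold higher in SCM in PIAS1 shRNA2 cells (IL11) and 3.74-fold higher in control shRNA cells (IL6), while the median log2 ratio over all genes was -0.01 and 0.03. For 8 of the 9 genes, all but IL6ST, the smaller log2 ratio of SCM over DMEM exceeded the size of both knockdown log2 ratios. The same was so in 25.2% of the 7686 genes above the floor on all arrays. Only genes higher in SCM can meet this order, so the share leaves out genes that were lower in SCM. This order held on every probe set of 6 genes. IL11 had it on one probe set (206924_at) and not on the other (206926_s_at) or with the mean of both, where its smaller medium log2 ratio was 1.59 and its larger knockdown ratio 1.78, and IL1A did not have it on its dim probe set.

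**Figure D1:**
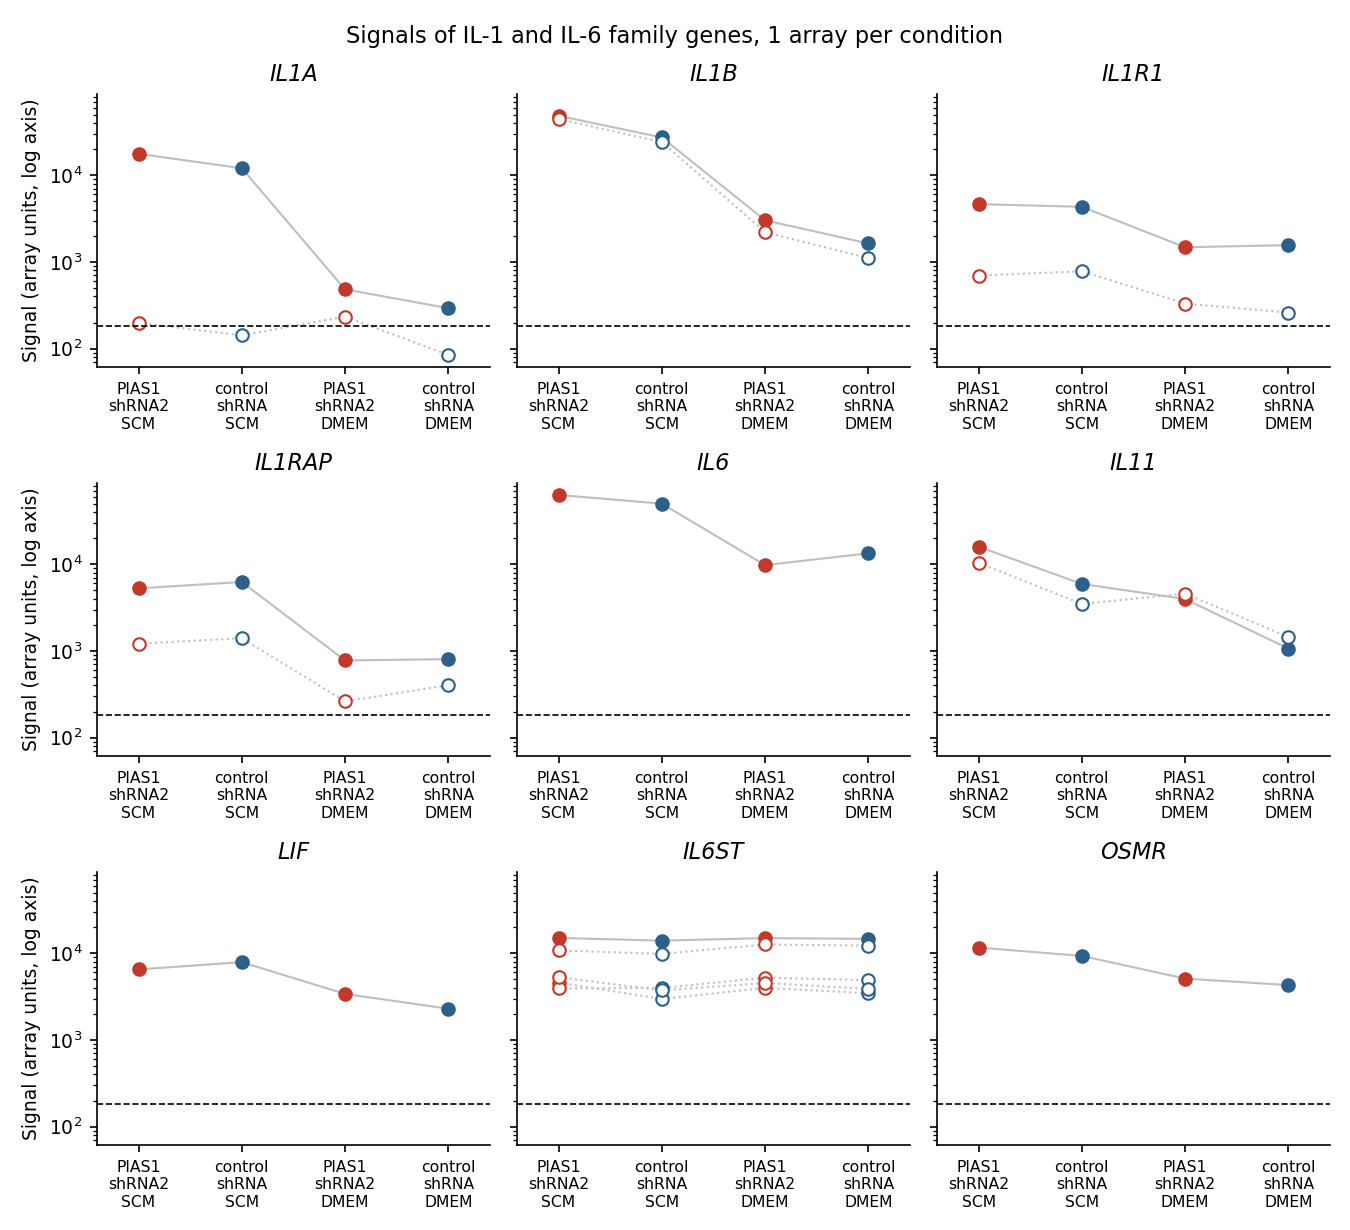
Signal (y axis, array intensity units, log axis) of every probe set of the 9 genes in the 4 conditions (x axis), 1 array each, with PIAS1 shRNA2 in red and control shRNA in blue; filled points joined by solid lines are the probe set used for the gene and open points the others, with the background floor of 182 dashed. IL1A and IL1B stand far higher in SCM than in DMEM, with IL1B at 48491 and 27266 against 3021 and 1633, and IL6ST is nearly level.

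The IL-1 ligands had the largest medium ratios of the family. IL1A, which encodes the membrane-associated IL-1 alpha, had a signal of 17667 in PIAS1 shRNA2 cells and 12038 in control shRNA cells in SCM, against 482 and 293 in DMEM. It was 36.6-fold higher in SCM in PIAS1 shRNA2 cells and 41.1-fold higher in control shRNA cells, ranking 4 among 9297 genes and 2 among 9194. This rests on 1 probe set (210118_s_at). The other IL1A probe set (208200_at) read 199 and 142 in SCM and 234 and 84.7 in DMEM. It was little above the floor in PIAS1 shRNA2 cells and under it in control shRNA cells in both media. The mean of both probe sets gave log2 ratios of 2.48 and 2.85 in place of 5.19 and 5.36.

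IL1B, which encodes the secreted IL-1 beta, was measured well above background on a pair of probe sets. On the brighter (205067_at) it read 48491 in PIAS1 shRNA2 cells and 27266 in control shRNA cells in SCM, against 3021 and 1633 in DMEM. The other (39402_at) read 44370.0 and 24173.5 in SCM against 2202 and 1109 in DMEM. IL1B was thus between 16.0-fold and 20.1-fold higher in SCM in PIAS1 shRNA2 cells and between 16.7-fold and 21.8-fold higher in control shRNA cells, and its brighter probe set ranked 12 in each line. IL1A and IL1B are next to each other among the protein-coding genes of chromosome 2, and IL37, the family gene on the other side of IL1B, was under the floor on all 4 arrays.

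The promoters of IL1A and IL1B are shown because these genes differed most between the media, and those of IL6, IL11 and IL6ST as a ligand gene far higher in SCM, the gene of the family with the largest knockdown ratio, and the gene that was level. Each sequence is the 250 bases before the annotated start (RefSeq, GRCh38.p14), on the strand of the gene. Capitals mark matches on either strand to kappaB (NF-kappaB consensus of 10 letters), AP-1 (letters TGANTCA), C/EBP (letters TTGCNNAA), STAT (letters TTCNNNGAA) or the core promoter element called TATA box (letters TATAAA), none of which overlap here.
IL1A, chr2:112784494-112784743, minus strand: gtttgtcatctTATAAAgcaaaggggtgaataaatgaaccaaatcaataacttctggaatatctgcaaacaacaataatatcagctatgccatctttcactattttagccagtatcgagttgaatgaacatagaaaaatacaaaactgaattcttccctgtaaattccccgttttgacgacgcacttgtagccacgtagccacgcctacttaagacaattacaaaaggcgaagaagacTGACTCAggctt
IL1B, chr2:112836780-112837029, minus strand: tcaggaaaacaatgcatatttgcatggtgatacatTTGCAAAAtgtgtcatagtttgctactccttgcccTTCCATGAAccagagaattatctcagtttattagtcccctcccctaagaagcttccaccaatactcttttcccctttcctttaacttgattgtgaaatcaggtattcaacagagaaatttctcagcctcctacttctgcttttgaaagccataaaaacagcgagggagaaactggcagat
IL6, chr7:22726950-22727199, plus strand: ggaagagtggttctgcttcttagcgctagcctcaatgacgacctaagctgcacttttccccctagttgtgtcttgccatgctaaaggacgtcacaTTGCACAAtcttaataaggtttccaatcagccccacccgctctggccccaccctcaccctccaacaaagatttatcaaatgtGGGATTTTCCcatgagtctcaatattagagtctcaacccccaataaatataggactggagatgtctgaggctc
IL11, chr19:55370464-55370713, minus strand: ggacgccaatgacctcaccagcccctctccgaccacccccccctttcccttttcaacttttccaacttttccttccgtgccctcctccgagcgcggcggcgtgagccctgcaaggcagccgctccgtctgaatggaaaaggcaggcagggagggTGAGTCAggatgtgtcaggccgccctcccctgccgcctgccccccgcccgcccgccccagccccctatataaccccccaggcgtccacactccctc
IL6ST, chr5:55994964-55995213, minus strand: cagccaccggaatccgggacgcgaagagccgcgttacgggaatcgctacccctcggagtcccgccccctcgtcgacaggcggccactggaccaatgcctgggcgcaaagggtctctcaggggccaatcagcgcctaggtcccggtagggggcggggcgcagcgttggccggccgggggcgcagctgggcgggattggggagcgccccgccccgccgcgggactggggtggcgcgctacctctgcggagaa

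In these windows IL6 held a kappaB match 73 to 64 bases before the start and a C/EBP match 155 to 148 bases before it. IL11 held an AP-1 match 96 to 90 bases before the start, and IL1A held an AP-1 match 12 to 6 bases before it, with a further one in the window of an alternative IL1A start. The TATA match of IL1A lay far from the start, 239 to 234 bases before it. IL1B held 1 C/EBP and 1 STAT match, and IL6ST held none of the 5 motifs. Over all 35116 RefSeq promoter windows of this length, which include non-coding genes, 5.21% held a kappaB match, 6.57% an AP-1 match, 9.05% a C/EBP match, 6.57% a STAT match and 10.7% a TATA match. Sequences were found for 9 of the 10 named genes, with LIF the exception, and a match describes the letters only.

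**Figure D2:**
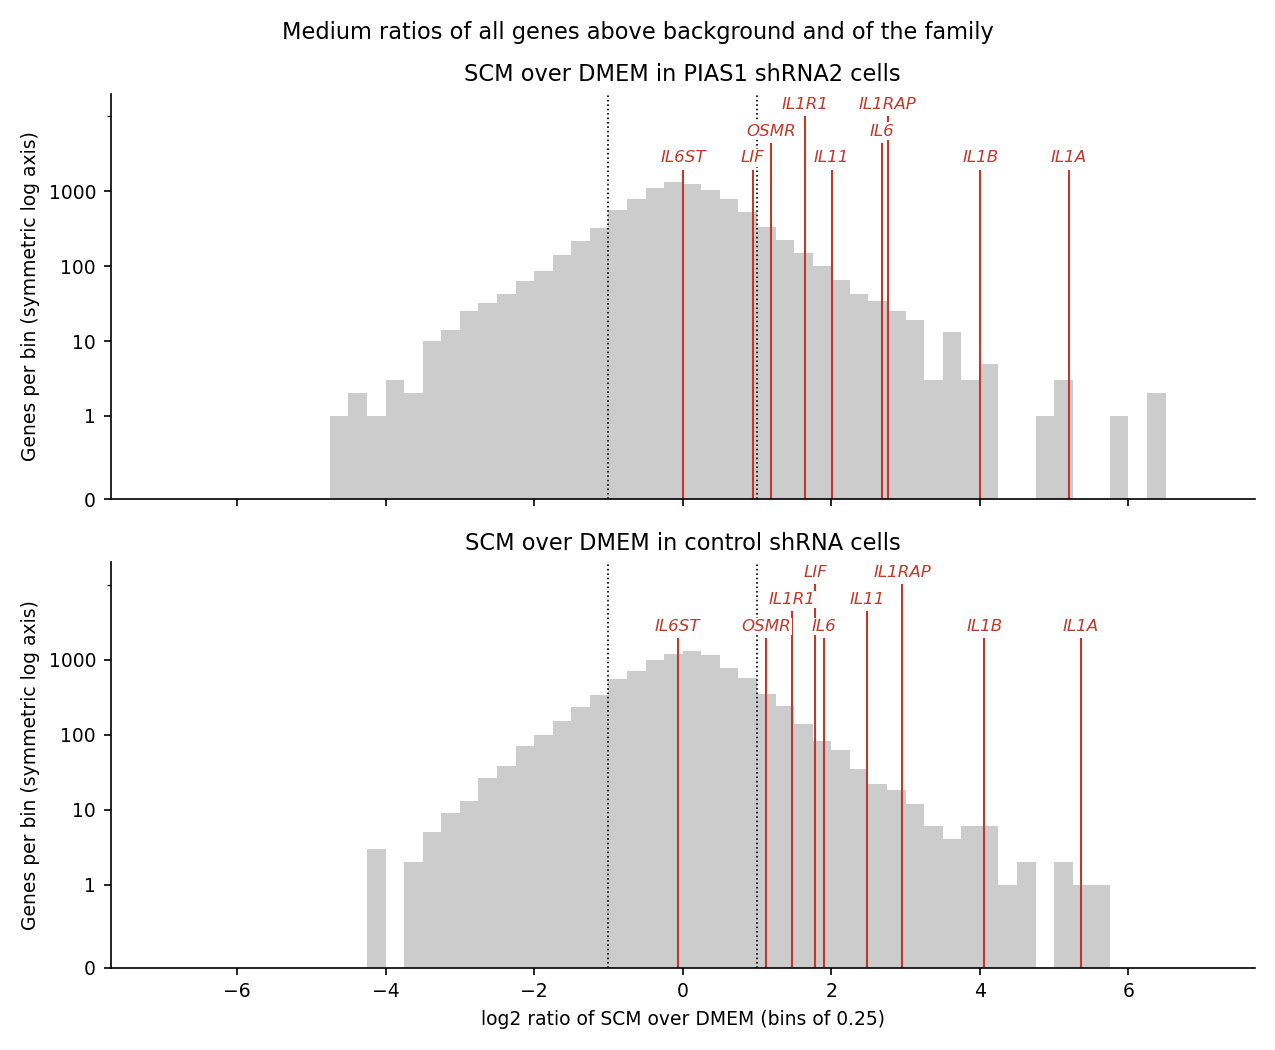
Number of genes (y axis, symmetric log axis) by log2 ratio of SCM over DMEM (x axis, bins of 0.25) for the genes above the floor in PIAS1 shRNA2 cells (top) and control shRNA cells (bottom), 1 array per condition; red lines mark the 9 genes of the family and dotted lines a 2-fold difference. IL1A and IL1B lie in the far right tail in both lines, IL1A at log2 ratios of 5.19 in PIAS1 shRNA2 cells and 5.36 in control shRNA cells.

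Both chains of the IL-1 receptor were also higher in SCM. IL1R1, the ligand-binding chain, read 4644 in PIAS1 shRNA2 cells and 4320.4 in control shRNA cells in SCM, against 1477 and 1564 in DMEM, 3.14-fold and 2.76-fold higher. Its dimmer probe set (215561_s_at) read 696 and 781 against 331 and 261, 2.10-fold and 2.99-fold higher. IL1RAP, the accessory chain without which the receptor does not signal, read 5267 and 6243 in SCM, against 777 and 804 in DMEM. It was 6.78-fold higher in PIAS1 shRNA2 cells and 7.76-fold higher in control shRNA cells, and on the dimmer probe set (210233_at), where the signals were 1213 and 1403 against 262 and 402, it was 4.64-fold and 3.49-fold higher. Neither receptor chain differed by 2-fold between the shRNAs on any probe set. The decoy receptor gene IL1R2, the neighbour of IL1R1, was near or under the floor, with 229 and 16.3 in SCM and 209 and 119 in DMEM, and the antagonist gene IL1RN was dim and level, with 211 and 237 in SCM and 270.5 and 238 in DMEM.

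Of the IL-6 family ligands, IL6 was higher in SCM in both lines. Its single probe set read 62966 in PIAS1 shRNA2 cells and 49922 in control shRNA cells in SCM, against 9772 and 13365 in DMEM. The ratio of SCM over DMEM was 6.44 in PIAS1 shRNA2 cells and 3.74 in control shRNA cells, since the 2 lines stood in opposite order in the 2 media. The SCM signals are in the upper part of the range of the arrays, on which the brightest probe set read between 95873 and 109607.

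IL11, a cytokine known for its effects on bone and on platelet formation and for its role in breast cancer metastasis to bone, was the single gene of the family that differed by at least 2-fold between the shRNAs. On 206924_at it read 15928.5 in PIAS1 shRNA2 cells and 5931 in control shRNA cells in SCM, and 3969.8 and 1065 in DMEM. The other probe set (206926_s_at) read 10374 and 3490.05 in SCM, and 4573 and 1447 in DMEM. IL11 was thus higher with PIAS1 shRNA2 by 2.69-fold and 2.97-fold in SCM, and by 3.73-fold and 3.16-fold in DMEM, on the first and second probe set. By the first, IL11 ranked 67 among 9331 genes in SCM and 9 among 8990 in DMEM. So 1 of the 9 was higher by 2-fold or more in each medium, beside 2.19% of all genes above the floor in SCM and 1.55% in DMEM, and 0 of the 9 were lower by that size, beside 1.51% and 0.868%.

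The medium ratio of IL11 depended on the probe set more than its knockdown ratio did. SCM over DMEM was 4.01 on one probe set and 2.27 on the other in PIAS1 shRNA2 cells, and 5.57 and 2.41 in control shRNA cells. All 4 ratios are above 2, and their size differs by over 1.5 times between the probe sets. Its receptor gene IL11RA read 562 in PIAS1 shRNA2 cells and 735 in control shRNA cells in SCM, against 253 and 348 in DMEM, 2.22-fold and 2.11-fold higher in SCM.

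LIF, a cytokine that sustains pluripotency in mouse embryonic stem cells, read 6513 in PIAS1 shRNA2 cells and 7892 in control shRNA cells in SCM, against 3393 and 2293 in DMEM. It was 1.92-fold higher in SCM in PIAS1 shRNA2 cells, just under the 2-fold mark, and 3.44-fold higher in control shRNA cells. LIF thus showed the reverse of IL6: with PIAS1 shRNA2 its log2 ratio was -0.28 in SCM and 0.57 in DMEM, while that of IL6 was 0.33 in SCM and -0.45 in DMEM. The difference between the 2 knockdown ratios was 0.79 on the log2 scale for IL6 and -0.84 for LIF. None of the 9 genes reached a difference of 1 in either direction, while 2.53% of all genes did with the larger ratio in SCM and 2.84% with the larger ratio in DMEM. OSM, the neighbour of LIF and the ligand read by OSMR, was under the floor on all arrays.

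The shared receptor chain did not follow its ligands. IL6ST read 15019 in PIAS1 shRNA2 cells and 13978 in control shRNA cells in SCM, against 14941 and 14657 in DMEM, on the brightest of its 5 probe sets. Over the 5 probe sets its log2 ratio of SCM over DMEM lay between -0.41 and 0.22 in PIAS1 shRNA2 cells and between -0.31 and -0.05 in control shRNA cells. With PIAS1 shRNA2 over control shRNA it lay between -0.02 and 0.63 in SCM and between 0.03 and 0.23 in DMEM. The 5 probe sets of IL6ST read the same RNA extracts, so their range shows how far probe sets of 1 gene can part and not how far cultures do.

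OSMR, which pairs with gp130 to read oncostatin M, read 11616.5 in PIAS1 shRNA2 cells and 9308 in control shRNA cells in SCM, against 5099 and 4289 in DMEM. It was 2.28-fold and 2.17-fold higher in SCM, close to the 2-fold mark. LIFR, its neighbour on chromosome 5, was dim and nearly level, with 524 and 465 in SCM and 495 and 381 in DMEM, and IL6R was under the floor on all arrays.

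Knockdown ratios of the family were small beside IL11. IL1B had the next largest, with PIAS1 shRNA2 over control shRNA at 1.78-fold and 1.84-fold in SCM on its 2 probe sets and at 1.85-fold and 1.99-fold in DMEM, so that all 4 ratios lay just under 2-fold. IL1A was 1.47-fold higher in SCM and 1.65-fold higher in DMEM. Counting any size, 5 of the 9 genes (IL1A, IL1B, IL11, IL6ST and OSMR) were higher with PIAS1 shRNA2 in both media. IL1RAP was lower in both, and IL1R1, IL6 and LIF had opposite signs in the 2 media. Of the 7686 genes above the floor on all arrays, 29.0% were higher in both and 28.8% lower in both. IL6ST is among the 5 by a log2 ratio of 0.03 in DMEM, which became -0.03 with the arrays scaled to a common median. The log2 ratios of IL1R1 were 0.10 in SCM and -0.08 in DMEM on the probe set used. On its other probe set the signs were reversed, with -0.17 and 0.34. The median log2 ratio of the 9 genes was 0.32 in SCM and 0.25 in DMEM, while that of all genes was 0.00 and 0.01.

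**Figure D3:**
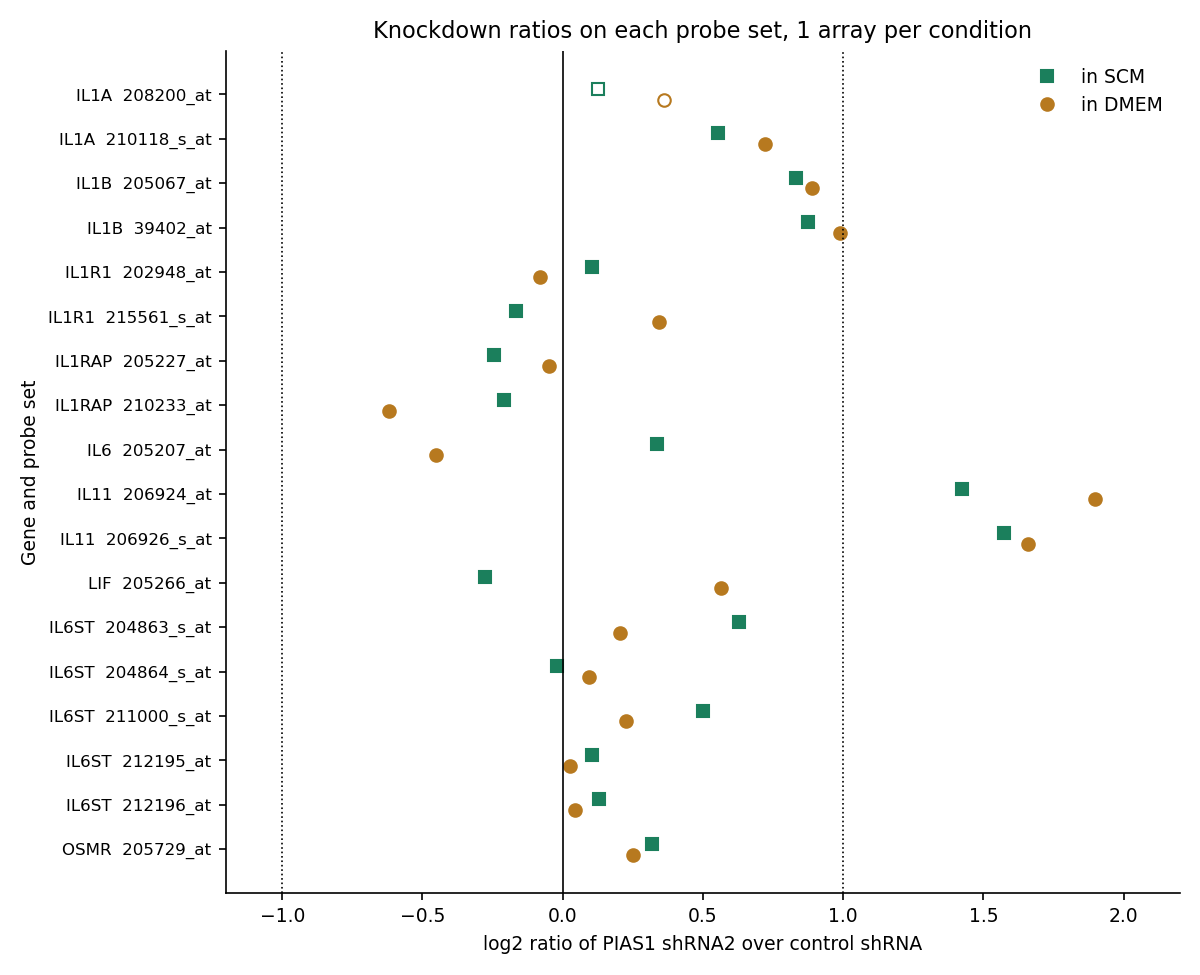
Log2 knockdown ratio, PIAS1 shRNA2 over control shRNA (x axis) for each of the 18 probe sets (y axis), in SCM (green squares) and DMEM (brown circles), 1 array per condition; dotted lines mark a 2-fold difference and open symbols a probe set with signals under the floor. Both IL11 probe sets lie beyond 2-fold in both media, IL1B lies just under it, and IL6 and LIF change sides between the media.

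Other genes of the same pathways were read from lists of 93 genes, of which 79 were measured. These lists were described by counts alone. In SCM over DMEM, 19 of 63 such genes above the floor were at least 2-fold higher in PIAS1 shRNA2 cells and 4 lower, and in control shRNA cells 16 of 62 were higher and 6 lower, or 30.2% and 25.8% higher beside 10.9% and 10.7% of all genes. With PIAS1 shRNA2 over control shRNA, 3 of 65 were higher and 1 lower in SCM, and 1 of 58 was higher and 0 lower in DMEM, where 2.19% and 1.51% of all genes were higher and lower in SCM and 1.55% and 0.868% in DMEM.

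Among ligands, EBI3, which encodes a subunit of IL-27 and IL-35, read 6692 in PIAS1 shRNA2 cells and 2677 in control shRNA cells in SCM, against 438 and 709.8 in DMEM. Its ratio of SCM over DMEM was 15.3 in PIAS1 shRNA2 cells and 3.77 in control shRNA cells, and IL27RA, a receptor chain for IL-27, was 3.52-fold and 2.60-fold higher in SCM. CSF3, the gene of the granulocyte colony stimulating factor G-CSF, read 13873 and 4421 in SCM, while both DMEM signals, 65.8 and 126, were under the floor. CSF3 was at least 76.2-fold higher in SCM in PIAS1 shRNA2 cells and at least 24.3-fold higher in control shRNA cells, and in SCM it was 3.14-fold higher with PIAS1 shRNA2.

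Of the IL-1 receptor signalling genes, PELI1, which encodes a ubiquitin ligase of this pathway, was 5.16-fold higher in SCM in PIAS1 shRNA2 cells and 2.81-fold higher in control shRNA cells. IRAK3, a gene for an inhibitory IRAK family member, was at least 3.46-fold and at least 3.03-fold higher, and the kinase gene IRAK1 had log2 ratios of -1.24 and -1.62. The adaptor gene MYD88 was level, with 7864 in PIAS1 shRNA2 cells and 6681 in control shRNA cells in SCM and 6799.9 and 6941 in DMEM. With PIAS1 shRNA2, PELI2 was 2.21-fold higher in SCM, and CASP1, whose protease matures IL-1 beta, was 2.62-fold higher in DMEM (568 against 217). CASP1 was the 1 pathway gene called in DMEM, and it was not called with either higher floor or with the mean of its probe sets.

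None of the 9 measured JAK and STAT genes of gp130 signalling differed by 2-fold in any comparison. Of all genes, 2.19% were at least 2-fold higher and 1.51% lower with PIAS1 shRNA2 in SCM, and 1.55% and 0.868% in DMEM. The lack of calls among 9 genes thus says little about JAK and STAT genes between the shRNAs. In SCM over DMEM, 10.9% of all genes were higher and 10.4% lower in PIAS1 shRNA2 cells, and 10.7% each in control shRNA cells. STAT3 read 11023 in PIAS1 shRNA2 cells and 13468 in control shRNA cells in SCM and 9822 and 10109 in DMEM. Of the 10 measured feedback genes and targets of gp130 signalling, 6 were at least 2-fold higher in SCM in PIAS1 shRNA2 cells and 5 in control shRNA cells. The shares of all genes higher by that size were 10.9% and 10.7%. SOCS2, another feedback inhibitor, was lower in SCM in both lines, with log2 ratios of -0.98 and -1.04, of which the second passed 2-fold. JUNB, a subunit of AP-1, was 6.78-fold and 8.71-fold higher, PIM1, a kinase gene, 3.06-fold and 3.67-fold, and MCL1, which encodes a survival factor of the BCL2 family, 2.44-fold and 3.09-fold. SOCS3, a feedback inhibitor of gp130, was 2.26-fold higher in SCM in PIAS1 shRNA2 cells and level in control shRNA cells (741 and 671 in SCM, against 328 and 617 in DMEM). These genes also answer to other signals, growth factors among them.

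Regulators that act on cytokine genes or their mRNA went both ways between the media. ZFP36, whose product tristetraprolin binds AU-rich mRNA such as that of cytokines and speeds its decay, was 11.5-fold higher in SCM in PIAS1 shRNA2 cells and 14.1-fold higher in control shRNA cells. The C/EBP factor genes CEBPB and CEBPD were 2.59-fold and 3.10-fold higher in PIAS1 shRNA2 cells and 2.27-fold and 4.10-fold higher in control shRNA cells. ELAVL1, which encodes the mRNA-stabilising protein HuR, had log2 ratios of -1.10 and -1.39, and FOSL1, another AP-1 subunit, had -1.48 and -0.94. FOSL2, also of AP-1, read 3690.2 in PIAS1 shRNA2 cells and 10863 in control shRNA cells in SCM, a log2 ratio of -1.56, and 5529 and 6266 in DMEM.

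**Figure D4:**
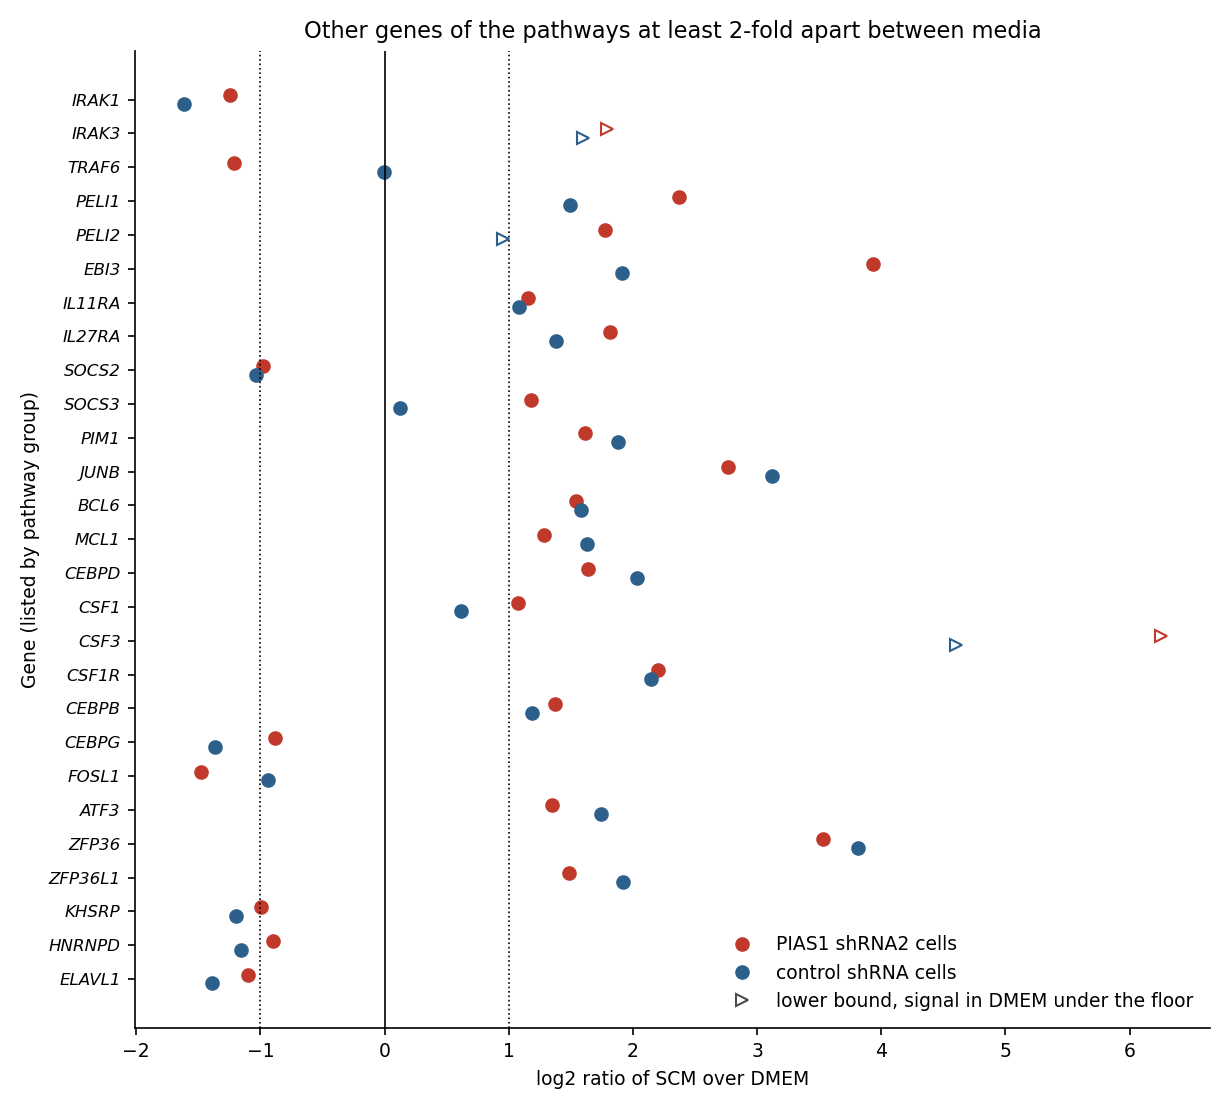
Log2 ratio of SCM over DMEM (x axis) for the other pathway genes at least 2-fold apart between the media in 1 line or both (y axis), in PIAS1 shRNA2 cells (red) and control shRNA cells (blue), 1 array per condition; open triangles are lower bounds and dotted lines mark a 2-fold difference. CSF3 and ZFP36 lie far to the right in both lines, EBI3 lies further right in PIAS1 shRNA2 cells, and IRAK1 and ELAVL1 lie to the left of the 2-fold line in both.

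IL-1 and IL-6 are also products of leukocytes and stromal cells, so markers of these cells were read. All 4 arrays are of cultured MDA-MB231 cells, and no other cell type is described in these cultures. The values are thus signals of marker genes and not a measure of such cells. Of 9 measured leukocyte markers, 3 were above the floor in each SCM array and in PIAS1 shRNA2 cells in DMEM, and 4 in control shRNA cells in DMEM. Their summed signal was 3805 in PIAS1 shRNA2 cells and 4549.8 in control shRNA cells in SCM, against 1389 and 1994 in DMEM, and CSF1R made up most of the difference, with 1898.5 and 2537 against 414 and 572. The monocyte marker CD14 was above the floor on all arrays and also higher in SCM, with 961 and 1172 against 355 and 627, and the T cell marker CD2 was above it in PIAS1 shRNA2 cells in SCM alone (387). CD3E, another T cell marker, was above it in control shRNA cells alone, with 220 in SCM and 189 in DMEM. In DMEM alone, ITGAM was above it in control shRNA cells (203) and CD163 in PIAS1 shRNA2 cells (218). The pan-leukocyte marker PTPRC, the B cell marker MS4A1 and the myeloid marker LYZ were under the floor on all arrays. For the 6 fibroblast and endothelial markers the summed signal was 5478 and 3565 in SCM, against 746 and 953 in DMEM, with LUM, CDH5 and VWF under the floor on all arrays. PECAM1, an endothelial and platelet adhesion molecule gene, made up much of it, with 3297 and 2188 in SCM against 219 and 339 in DMEM. PDGFRB, a receptor gene of fibroblasts and pericytes, was above the floor on all arrays and 5.03-fold and 3.20-fold higher in SCM, with 1685 and 1022 against 335 and 319. The part of these markers in the differences between media was not tested.

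The genes with the most similar 4 signals were found by the root mean square difference of the log2 signals over the 4 arrays, each gene centred on its own mean, among 7685 genes above the floor on all arrays. Nearest to IL6 were ASS1 with a difference of 0.06, MTMR11 with 0.08 and CTSS with 0.08. IL1RAP was nearest to JUNB with 0.09, ABCG1 with 0.11 and TNFRSF10D with 0.11, and IL1R1 to P2RX4 with 0.03, HBP1 with 0.04 and TNFSF10 with 0.04. IL11 had no close neighbour, with RGS2 at 0.31, MFAP2 at 0.33 and INHBA, the gene of the activin A subunit, at 0.35. Nor had IL1A, with ALDOC at 0.42, the immediate early gene EGR1 at 0.49 and its own neighbour IL1B at 0.63. For IL1B the nearest were ALOX5AP with 0.31, CST4 with 0.40 and DEPP1 with 0.40. For LIF they were THRA with 0.06, PPARD with 0.07 and TSPAN31 with 0.07, and for OSMR they were ZNF83 with 0.03, GMPPA with 0.05 and DYNC2I1 with 0.05. IL6ST was left out, since its 4 signals span less than 2-fold. With 4 arrays and 2 media many genes share such a profile, so these are descriptions of 4 values each.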

How the data were processed

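Total RNA of MDA-MB231 cells in 4 conditions was hybridised to Affymetrix U133A 2.0 arrays, 1 array per condition. The authors deposited 1 intensity per probe set and array, on a linear scale. The submitters' processing notes name MAS5, a method that summarises the probes of a probe set and scales each array. The sources used here give no version of it and no detection calls.

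Names came from the gene table of the platform, with 19070 of 22277 listed for exactly 1 gene, 1043 for several and 2164 unnamed here. By Entrez identifier 19058 had an entry in RefSeq (GRCh38.p14), and 0 symbols needed an update. For each gene, the probe set of highest mean log2 signal over the 4 arrays was used. As background floor served the 75th percentile of 82 probe sets of 58 tissue-restricted genes, taken per array, and the highest value, 182, was used for all arrays. Signals under it were raised to it. A ratio counted as different at 2-fold where the brighter signal was above the floor. No fit was made, since no condition has a second array. Named genes are the members on all probe sets, listed pathway genes at least 2-fold apart or next to a member, the 3 nearest profiles per member whose signals span at least 2-fold, and the values given for contrast (among them IL1RN, IL6R, MYD88, STAT3 and markers), which were chosen after their values were seen. The members and lists were chosen with earlier results of these data known.

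Counting at 2-fold was tested on simulated data for PIAS1 shRNA2 over control shRNA in SCM over 11963 genes. Of 200 genes simulated with a 4-fold change and an array spread of 0.25 (log2), 199 were recovered and 31 unchanged genes were called. The 200 were drawn from genes well above the floor, and the spread was assumed. These counts check the counting step and give no error rate for the 4 arrays. Alternatives tried were the floor at another percentile, at the array median or left out, scaling to a common median, quantile normalization and the mean of probe sets. Python 3.11.15, NumPy 2.4.6, pandas 2.3.3 and matplotlib 3.10.9 were used. Measurements by Q-PCR, ChIP or Western blot were not analysed here.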

Additional observations from a re-analysis of the deposited data

Results flagged for a closer look

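In 4 further pathway genes, of 79 measured, the knockdown ratio (PIAS1 shRNA2 over control shRNA) had opposite signs in the 2 media. Their log2 ratios lay at least 1 apart, with all signals above the floor. Of all genes, 2.53% lay that far apart with the larger ratio in SCM and 2.84% with the larger ratio in DMEM. These shares set no condition on signs, so the 4 genes are a description only. Subtracting the log2 value in DMEM from that in SCM gave 2.02 for EBI3, 1.05 for the feedback inhibitor gene SOCS3, -1.21 for the ubiquitin ligase gene TRAF6 and -1.57 for the CNTF receptor gene CNTFR. With 1 array per condition these differences were not tested. Signals of CNTFR lay between 353 and 702 and those of SOCS3 between 328 and 741, both close to background. The opposite signs of SOCS3 also rest on a small log2 ratio in SCM, 0.14.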

How the results depend on the processing

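Each of the 36 log2 ratios of the 9 genes was recomputed under 6 alternatives, 216 values in all. Of these, 215 stayed on their side of 2-fold and none changed sign among those at least 2-fold. The exception was LIF in SCM over DMEM in PIAS1 shRNA2 cells, whose log2 ratio of 0.94 reached the 2-fold mark after quantile normalization. Counts of the 9 genes at least 2-fold higher or lower stayed within 1.5 times in every alternative, as did the percentages of control for PIAS1 under both scalings.

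Counts of the other pathway genes, for which the alternatives were chosen after seeing the data, moved more. With no floor, 10 were higher and 4 lower with PIAS1 shRNA2 in SCM, 6 higher and 5 lower in DMEM, and 10 lower in SCM than in DMEM in control shRNA cells. The count of 1 higher with PIAS1 shRNA2 in DMEM (CASP1) was 0 with the floor at the 95th percentile of the tissue-restricted genes, with the floor at the array median and with the mean of probe sets. With that mean, 2 were lower with PIAS1 shRNA2 in SCM and 1 in DMEM. No paired analysis was possible because each condition has 1 array, so that no replicate numbers are shared. All values are limited in precision by the 4 arrays.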
